A study of Drosophila melanogaster with 6 samples.

Results

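The proteasome is the protease complex that degrades ubiquitin-tagged proteins in the cytoplasm and nucleus. Its genes were chosen by name, as every gene of the deposited comparison table whose symbol starts with Prosalpha or Prosbeta, or with Rpn or Rpt followed by a digit. This gave 40 of the 13416 genes in the table, and the rule used no measured value. They comprised 14 core particle genes (Prosalpha1 to Prosalpha7 and Prosbeta1 to Prosbeta7), 18 regulatory particle genes (6 Rpt and 12 Rpn genes) and 8 testis-type paralogues, whose symbols add an R or a T to the name of a subunit. The 40 genes were spread over all major chromosome arms, with 5 on 2L, 11 on 2R, 7 on 3L, 13 on 3R and 4 on X.

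RNA-seq was performed on the central nervous system (CNS) of third-instar Drosophila melanogaster larvae, with 3 control and 3 Alk-YS libraries. Alk-YS larvae were homozygous for an edited allele of Alk, which encodes a receptor tyrosine kinase. The edit replaced a tyrosine of the kinase domain with a serine, and the study treats the allele as activating. Controls were labelled w1118, a strain that lacks function of the eye colour gene white. The study's stock list also names a Cas9-carrying w1118 stock (Mvas-Cas9) as wild type, and embryos of that stock were injected to make the edited allele. The sources do not say which w1118 strain gave the control libraries. They also do not say whether control and Alk-YS strains shared a background outside Alk when sampled. Each library was made from pooled CNSs of many larvae, and the sex of the larvae was not given. In pooled tissue, fewer cells of a type and less RNA per cell cannot be told apart.

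The 20S core particle is a barrel of stacked rings. The outer alpha rings gate the entry, and the inner beta rings carry the proteolytic sites, which sit on the beta1, beta2 and beta5 subunits. The 19S regulatory particle caps the barrel. Its base holds the ring of Rpt ATPases that unfold and translocate substrates, together with the scaffold subunits Rpn1 and Rpn2 and the ubiquitin receptors Rpn10 and Rpn13, and its lid holds the deubiquitinase Rpn11 and its structural partners. Several Drosophila subunits have paralogues expressed in the male germ line, which build testis-type proteasomes. Proteolysis by the ubiquitin-proteasome system is known to act in neuroblast division, in neurite pruning and at the larval synapse.

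Between 18770029 and 22333967 reads were assigned to genes per library. All 5 neuronal and all 3 glial markers examined were detected in every library, so each held RNA of nervous tissue. Detection alone does not show how pure the dissected tissue was. The 5 muscle markers summed to 1528 to 2227 normalized counts in control and 652 to 1139 in Alk-YS libraries, and the 5 fat body markers to 9743 to 94367 and 2689 to 25627. Muscle and fat body RNA was therefore present in all libraries and was unequal between them. Alk itself had 2989, 2383 and 2136 normalized counts in control and 2696, 2556 and 2472 in Alk-YS, which overlapped between the groups. Its count does not test the genotype labels, because the edit changes the protein and not the presence of the transcript.

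Core particle genes were among the strongly expressed genes of the larval CNS. Levels between genes were compared in FPKM, which is the fragment count scaled for gene length and library size. Values of single libraries are given in the order of replicates 1 to 3. The median over the 14 core genes was 259 FPKM, against 145 FPKM over the 18 regulatory genes and 13.5 FPKM over the 9668 genes tested. Of the 32 core and regulatory genes, 26 were among the 500 genes with the highest mean FPKM, and 31 had mean levels between 84.1 and 368 FPKM. The exception was Prosalpha1, at a measured 31.8 FPKM, a level that is uncertain because a duplicate gene lies beside it (below).

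**Figure D1:**
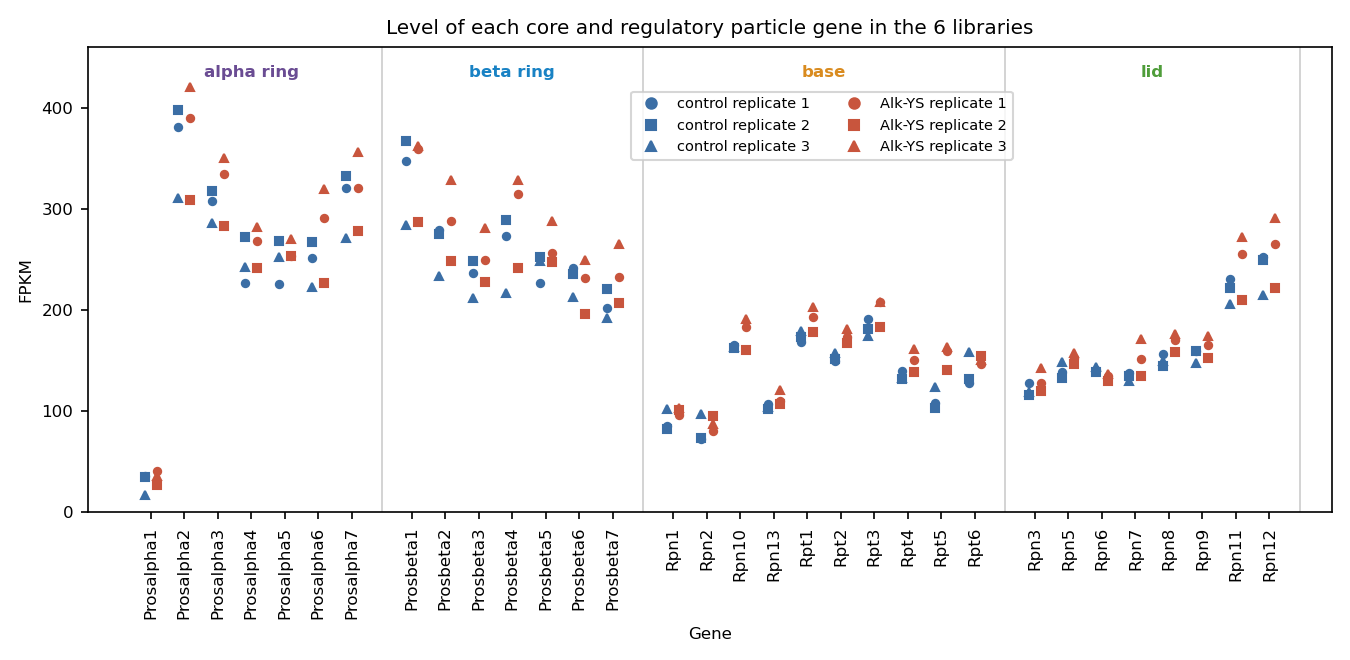
FPKM of the 14 core and 18 regulatory particle genes in each of the 6 libraries, with the genes grouped on the horizontal axis by alpha ring, beta ring, base and lid. Blue points are control and red points Alk-YS libraries. Alpha and beta genes other than Prosalpha1 lay higher (means 220 to 368 FPKM) than base genes (84.1 to 191 FPKM), and the lid genes Rpn11 and Rpn12 (232 and 249 FPKM) lay at the level of the core genes.

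In the alpha ring, Prosalpha2 had the highest mean, with 381, 398 and 311 FPKM in control and 389, 309 and 421 in Alk-YS. The values of control replicate 3 and Alk-YS replicate 2 were the lowest and nearly equal, and the groups overlapped. Without Prosalpha1, the alpha genes ranged only from 254 FPKM (Prosalpha5) to 368 FPKM. In the beta ring the range was from 220 FPKM for Prosbeta7 to 334 FPKM for Prosbeta1, which carries the caspase-like activity. Prosbeta1 had 347, 367 and 284 FPKM in control and 359, 287 and 362 in Alk-YS, and Prosbeta7, a non-catalytic subunit, had 202, 221 and 192 FPKM in control and 233, 207 and 265 in Alk-YS. The lowest Prosbeta1 library was above the highest Prosbeta7 library, so this order held in every library. Prosbeta2 (trypsin-like site) and Prosbeta5 (chymotrypsin-like site) had means of 275 ± 33.1 and 253 ± 19.9 FPKM (SD, n = 6). Within libraries Prosbeta2 was the higher, except in control replicate 3, where it had 233 and Prosbeta5 248 FPKM. In Alk-YS replicate 2 they were nearly equal (248 and 247 FPKM).

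In the base, the ATPase gene Rpt3 was highest, with 191, 181 and 174 FPKM in control and 208, 183 and 208 in Alk-YS. The scaffold gene Rpn2, the longest of the genes at 3412 bases, was lowest, with 72.6, 73.3 and 96.9 FPKM in control and 80.1, 94.7 and 87.1 in Alk-YS. Every Rpt3 value exceeded every Rpn2 value, and the other scaffold gene, Rpn1, was close to Rpn2 at 95.2 ± 8.91 FPKM (SD, n = 6). In the lid, Rpn12 was highest, with 253, 249 and 215 FPKM in control and 265, 222 and 290.5 in Alk-YS, and Rpn3 lowest, with 128, 116 and 119 FPKM in control and 128, 119.7 and 143 in Alk-YS. Both encode structural subunits, and their values did not overlap. The deubiquitinase gene Rpn11 was next to Rpn12, at 232 ± 26.2 FPKM (SD, n = 6).

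The order of levels followed gene length. Core genes were short (815 to 1215 bases of exon) and regulatory genes longer (995 to 3412 bases). Over the 32 genes, Spearman's rho of length and mean FPKM was -0.76, a description only, since the genes share libraries and length enters the FPKM. Rpn12 and Rpn11, the shortest regulatory genes, were also the 2 with the highest FPKM of that particle. On the scale of normalized counts, which does not correct for length, the median of the core genes was 5881 and that of the regulatory genes 5330, so that the particles lay much closer together. Within each library, the ratio of the core median FPKM to the regulatory median FPKM was 1.75, 1.98 and 1.61 in control replicates 1 to 3 and 1.78, 1.63 and 1.82 in Alk-YS replicates 1 to 3. The means were 1.78 ± 0.19 in control and 1.74 ± 0.096 in Alk-YS (SD, n = 3), and the groups overlapped.

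For the comparison of genotypes, all 32 core and regulatory genes and 2 of the 8 testis-type genes passed the filter, a mean of at least 10 normalized counts. A normalized count is the read count divided by the size factor of its library. No proteasome gene passed the test. With limma on log2(normalized count + 1) and Benjamini-Hochberg adjustment over 9668 genes, 0 of the 34 genes had an adjusted p under 0.05, where 2.97% of all genes did in either direction and 1.26% were higher in Alk-YS. At an unadjusted p under 0.05 there were 4 (Rpt5, Rpt2, Rpt3R and Rpt6R), all higher in Alk-YS, where 13.8% of all genes had such a p in either direction and 6.06% had it and were higher in Alk-YS. On recovered reads, edgeR called 0 (3 at an unadjusted p under 0.05) and DESeq2 called 1, Rpt5, with 6.33% of all genes called.

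The estimates were nearly all small and of the same sign. Of the 32 core and regulatory genes, 30 had a log2 fold change above 0, against 51.6% of all genes. Their median log2 fold change was 0.12, against 0.0078 over all genes. All but 2 of the 32 estimates, those of Rpt5 and Prosalpha1, were under 0.2. The 2 estimates below 0 belonged to Prosbeta6 and Rpn6. The standard errors of single genes, with a median of 0.10, were about as large as the estimates, and only 3 of the 32 estimates exceeded 2 standard errors. The genes share libraries, so that their common sign is not repeated evidence, and it carries no p-value.

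**Figure D2:**
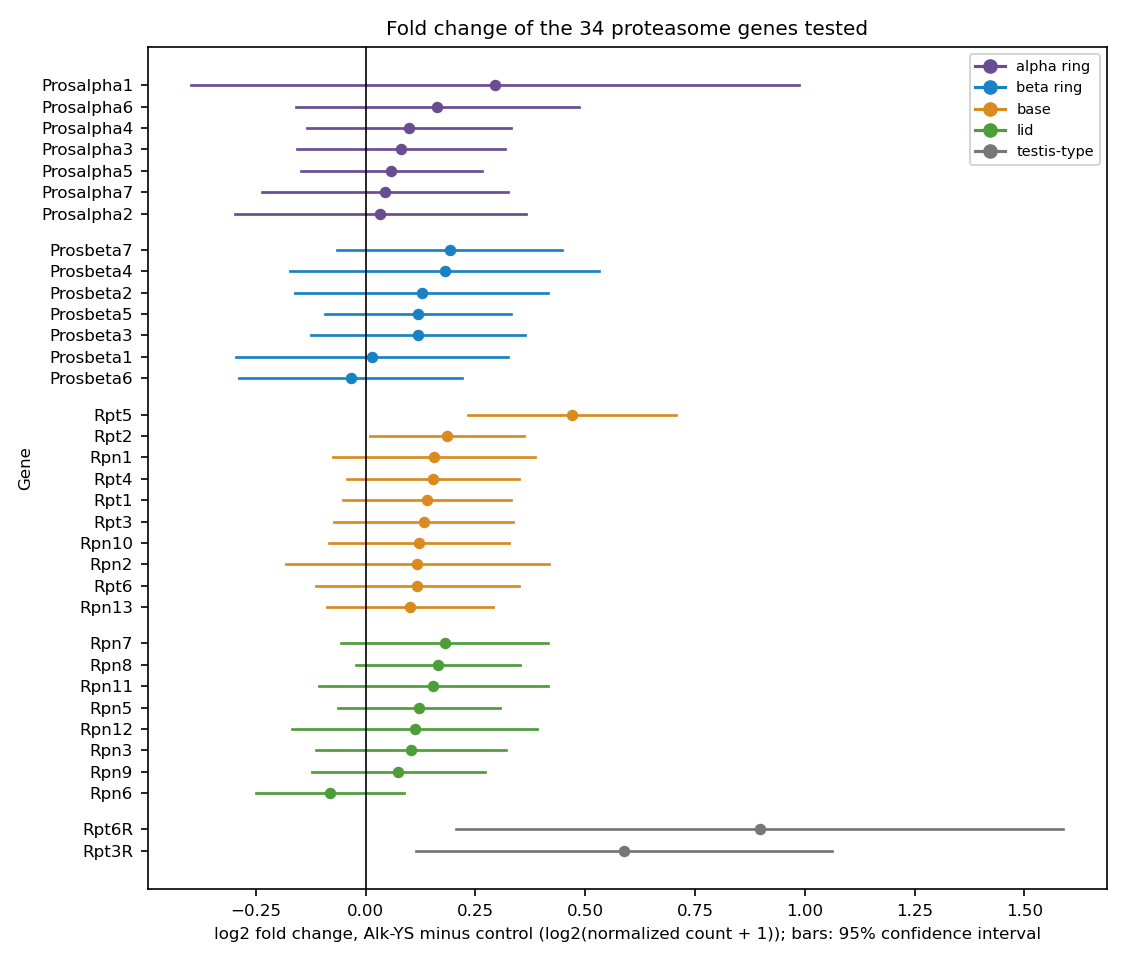
Log2 fold change (Alk-YS minus control, on log2(normalized count + 1)) of the 34 genes tested, with the 95% confidence interval from limma, ordered by size within each class. Apart from Rpt5 (0.47) and Prosalpha1 (0.30), the core and regulatory genes lay between -0.081 and 0.19, and only the intervals of Rpt5 and Rpt2 excluded 0 among them.

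The sign depended in part on single libraries. Alk-YS replicate 3 held the highest value of 12 of the 14 core and 15 of the 18 regulatory genes. Without it, 27 of the 32 estimates were above 0 and their median was 0.064. Without control replicate 3, which held the lowest value of 8 of the 14 core genes, 26 were above 0. Without Alk-YS replicate 2, in contrast, 31 were above 0 and their median was 0.18. All 4 neuroblast markers had log2 fold changes between 0.40 and 0.52. None was called, but all 4 had an unadjusted limma p under 0.05. Of all genes tested, 6.06% had such a p and were higher in Alk-YS. The sum of the 4 markers was 4649, 5008 and 6827 in control replicates 1 to 3 and 6688, 8574 and 7685 in Alk-YS replicates 1 to 3. This sum was highest in Alk-YS replicate 2 and, within control, in replicate 3. The core genes had their lowest mean log2 deviations in those libraries (-0.14 and -0.22). The 4 markers are 2036 to 3322 bases long, longer than any core gene, and longer genes in general were higher in those libraries (below). Of the 5 neuronal markers, 2 had estimates above 0 and 3 below 0, with a median of -0.25. The part of neuroblast RNA in the result was not tested, and it was not separated from that of gene length.

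With all libraries, core and regulatory particles had nearly the same median change. The median log2 fold change was 0.11 over the 14 core genes and 0.13 over the 18 regulatory genes, a difference of -0.019. This difference depended on single libraries, being -0.10 without control replicate 3, -0.063 without Alk-YS replicate 3, -0.054 without control replicate 1 and 0.035 without control replicate 2. By class it was 0.081 for the alpha ring, 0.12 for the beta ring, 0.14 for the base and 0.12 for the lid. In every library, the mean of the core genes was also set against that of the regulatory genes, each as log2 deviation from the 6-library mean. This core minus regulatory difference was 0.051, 0.17 and -0.18 in control replicates 1 to 3 and 0.030, -0.12 and 0.043 in Alk-YS replicates 1 to 3. The spread within the groups (0.017 ± 0.18 in control and -0.017 ± 0.093 in Alk-YS, SD, n = 3) was larger than the difference between them.

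**Figure D3:**
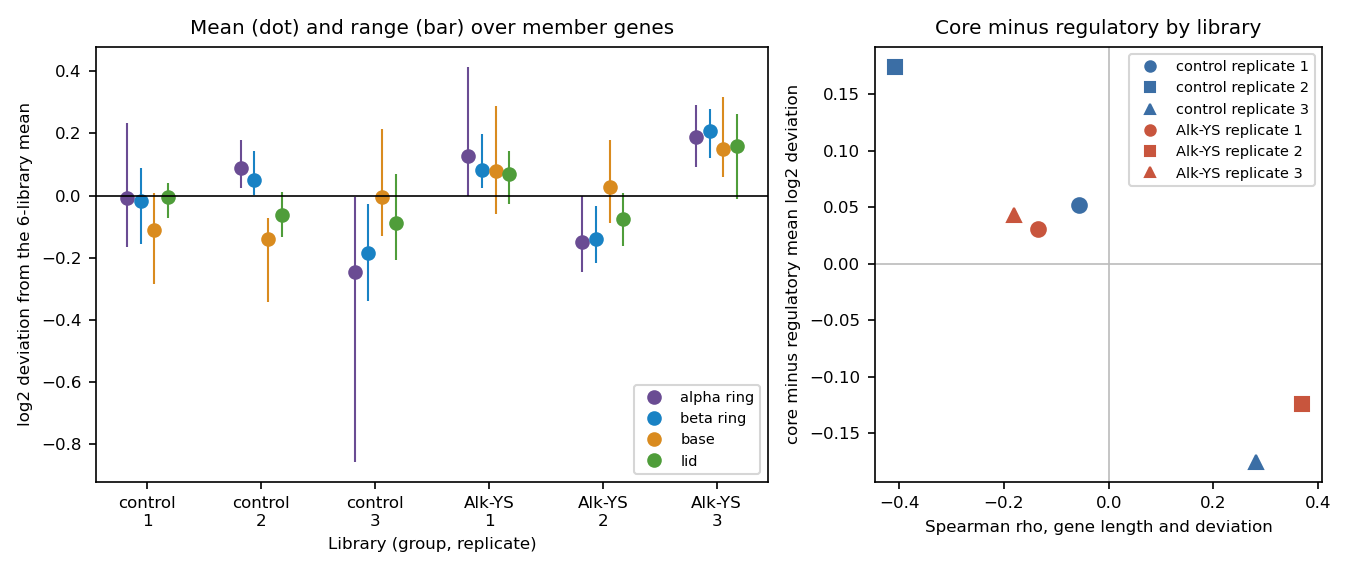
Left, mean (dot) and range over genes (bar) of the log2 deviation from the 6-library mean, for each class in each library. Right, the core minus regulatory difference of each library (log2) against Spearman's rho of gene length and deviation over all 9668 genes in that library. Control replicate 3 and Alk-YS replicate 2, with the highest rho (0.28 and 0.37), had the lowest differences (-0.18 and -0.12).

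The core genes varied more between replicates of 1 genotype than between genotypes. Across libraries, their means followed the length trend of the whole transcriptome only in part. The mean log2 deviation of the regulatory genes was -0.065, -0.10 and -0.041 in control replicates 1 to 3. It was 0.075, -0.019 and 0.15 in Alk-YS replicates 1 to 3, so the groups did not overlap. No test was made of this mean. In control replicate 3 and Alk-YS replicate 2, longer genes were higher and shorter genes lower than in the other libraries, with rho of length and deviation over all genes of 0.28 and 0.37. In control replicate 2 the reverse held, with a rho of -0.41, and in the other 3 libraries rho was between -0.18 and -0.056. The same 3 libraries were at the extremes among the 32 genes alone, where rho was 0.69 and 0.75 in control replicate 3 and Alk-YS replicate 2 and -0.82 in control replicate 2. The short core genes had their lowest means in control replicate 3 (-0.22) and Alk-YS replicate 2 (-0.14). However, control replicate 2, with the lowest rho, had a core mean of 0.069, below those of Alk-YS replicates 1 (0.11) and 3 (0.20). The median SD within groups was 0.16 log2 for core and 0.092 log2 for regulatory genes, against 0.18 for all genes tested. With the trend on length removed from each library, 31 of the 32 estimates were above 0 and 1 of the 34 genes tested, Rpt5, was called by limma, with 3.99% of all genes called.

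Rpt5 had the largest difference of the regulatory particle. It encodes an ATPase of the base ring whose tail docks into the alpha ring in yeast, and lies at 3R, 23752876 to 23754623, on the plus strand (FBgn0028684). Its normalized counts were 3640.1, 3494 and 4195 in control and 5407, 4754 and 5524 in Alk-YS. Every Alk-YS library was above every control library, and the gap between the groups was wider than the SD of either. The mean was 3776 ± 370 in control and 5228 ± 415 in Alk-YS (SD, n = 3), a log2 fold change of 0.47 ± 0.10 (SE), or 1.39-fold. The unadjusted p was 0.0019 and the limma adjusted p 0.057, so Rpt5 was not called. In rank order of p it was gene 317 of 9668. It was called under 4 of 17 alternatives, among them DESeq2 (adjusted p = 0.0017) and limma without control replicate 3 (adjusted p = 0.027). Over all 17, the log2 fold change was between 0.42 and 0.62 and the adjusted p between 0.0017 and 0.23.

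The 15 other genes within 25000 bases of Rpt5, all tested, had log2 fold changes between -0.83 and 0.67, on both sides of the value of Rpt5. None of them was called by limma either, and their lowest adjusted p was 0.13. Of the nearest genes on each side, Hrd3, on the opposite strand, overlaps Rpt5 by 1 base. It had a log2 fold change of -0.12 (limma adjusted p = 0.65), with every Alk-YS library below every control library. RanBP3, upstream of Rpt5, had 0.15 (limma adjusted p = 0.51), with every Alk-YS library above every control library. Rpn9 lies in the same window (3R, 23731375 to 23733462), and its counts overlapped between the groups.

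Of the other base genes, Rpt2 came next. Its product controls the opening of the core gate in yeast. Rpt2 had 5039.8, 5104 and 5329 normalized counts in control and 5853, 5631 and 6115 in Alk-YS, again without overlap between the groups, but with a much narrower gap than Rpt5. The log2 fold change was 0.19 ± 0.076 (SE, limma adjusted p = 0.33). The other 4 ATPase genes, Rpt1, Rpt3, Rpt4 and Rpt6, had estimates from 0.12 to 0.15 and overlapping groups. The whole Rpt1 locus, 1515 bases, is also annotated as part of CG17985 on the same strand, so its reads cannot be assigned with certainty. The estimates of Rpn1 and Rpn2 were 0.16 and 0.12, and those of the ubiquitin receptor genes Rpn10 and Rpn13 were 0.12 and 0.10. Rpn13, the smallest of the base, had 3733, 3557 and 3623 normalized counts in control and 3809.9, 3712 and 4201 in Alk-YS, which overlapped by a narrow margin.

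In the lid, Rpn7, a structural subunit, had the largest estimate, 0.18 ± 0.10 (SE). Its normalized counts were 3993, 3896 and 3748 in control and 4389.8, 3900.1 and 4952 in Alk-YS. Alk-YS replicate 3 stood well above the rest, and Alk-YS replicate 2 was inside the control range. Rpn8, the inactive partner of Rpn11, had 4977, 4602 and 4746 normalized counts in control and 5425, 5037 and 5598 in Alk-YS, without overlap, and a log2 fold change of 0.16 ± 0.080 (SE, limma adjusted p = 0.44). The kinase gene slik overlaps the Rpn8 locus by 2653 bases on the opposite strand, and the strand setting of the counting was not given in the sources used here. In all, 18 of the 40 genes overlap another gene, 16 of them on the opposite strand only.

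Rpn9, a structural subunit, had an estimate of 0.075 and normalized counts of 5572, 5569.5 and 5149 in control and 5784, 5308 and 6078 in Alk-YS. Its groups overlapped, and the lowest value of each was that of control replicate 3 and of Alk-YS replicate 2. Rpn6, a lid subunit that in yeast clamps the regulatory particle to the core, was the 1 regulatory gene with an estimate below 0. Its normalized counts were 5706, 5601 and 5822 in control and 5448, 5237 and 5505 in Alk-YS. All 3 Alk-YS libraries were below all 3 control libraries, but the log2 fold change was only -0.081 ± 0.072 (SE, limma adjusted p = 0.74), with a 95% interval from -0.25 to 0.086. Of the 32 core and regulatory genes, 3 (Rpt5, Rpt2 and Rpn8) had every Alk-YS library above every control library. This was near the background, since 9.41% of all genes tested did. The reverse held for Rpn6 alone among the 32 genes, and for 975 of the 9668 genes tested.

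Among the core genes no gene separated the groups. The largest estimates were those of Prosalpha1, Prosbeta7 and Prosbeta4. Prosbeta7 had 5105, 5585 and 4839 normalized counts in control and 5892, 5207 and 6690.4 in Alk-YS, with a log2 fold change of 0.19 ± 0.11 (SE, limma adjusted p = 0.55). Prosbeta4, another non-catalytic subunit, had 4628, 4894 and 3673 normalized counts in control and 5331, 4084 and 5563 in Alk-YS and a log2 fold change of 0.18 ± 0.15 (SE). For both genes, Alk-YS replicate 2 lay inside the control range. The smallest estimates were those of Prosbeta6 (-0.034), Prosbeta1 (0.015) and Prosalpha2 (0.034), and the sign of each turned in fits without 1 of the libraries. Prosbeta6, a non-catalytic subunit, had 4737, 4629 and 4172 normalized counts in control and 4548, 3835 and 4884 in Alk-YS. Its lowest and its highest value were both from Alk-YS. Prosbeta1 had 6153, 6496 and 5021 normalized counts in control and 6373, 5067 and 6406 in Alk-YS and Prosalpha2 7297, 7611 and 5941 in control and 7455, 5902 and 8040.0 in Alk-YS. In both, control replicate 3 and Alk-YS replicate 2 were below all other libraries by more than the groups differed.

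The genes for the other catalytic subunits had similar values. The estimates were 0.13 ± 0.12 for Prosbeta2 and 0.12 ± 0.091 for Prosbeta5 (SE). Prosbeta5 had 5376, 5986 and 5876 normalized counts in control and 6085, 5845 and 6815 in Alk-YS, and its Alk-YS replicate 3 stood above the rest. The remaining core genes, Prosalpha3 to Prosalpha7 and Prosbeta3, had estimates between 0.044 and 0.16. The upper ends of the 95% intervals of all 32 core and regulatory genes were below a log2 fold change of 1. For the 31 genes other than Prosalpha1, the upper ends were at most 0.71, the value of Rpt5.

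**Figure D4:**
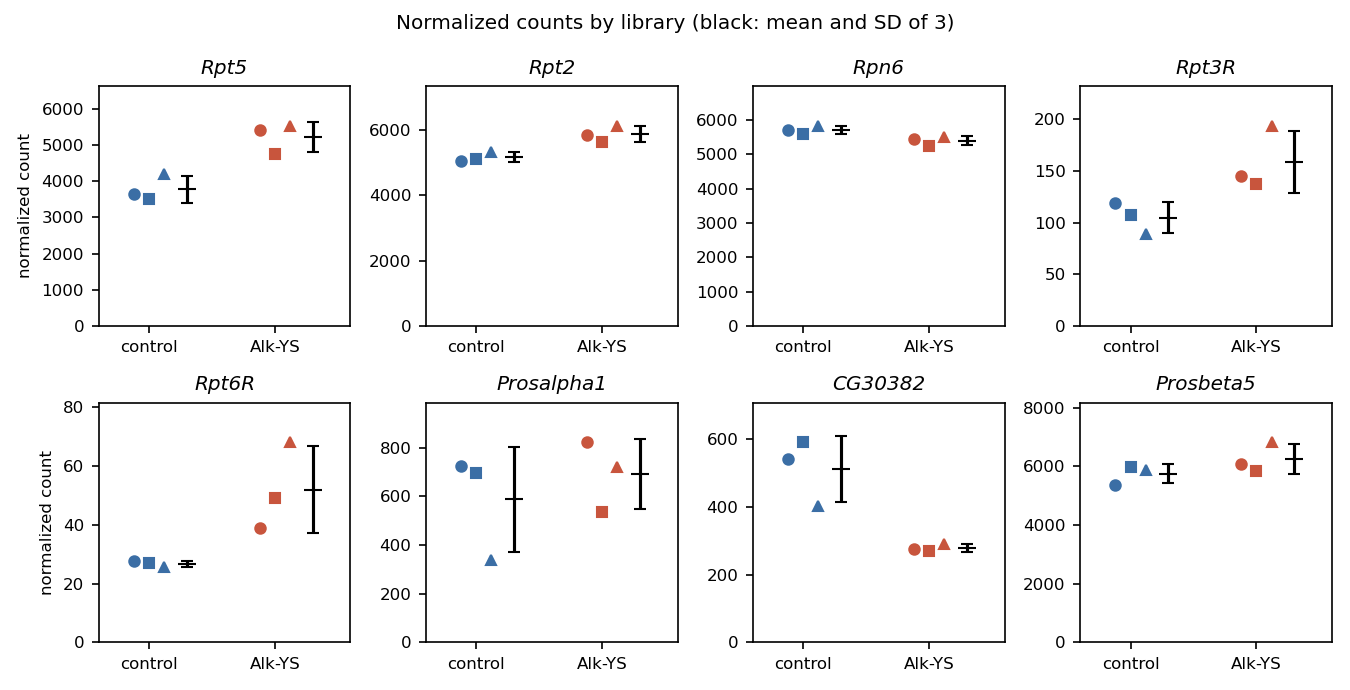
Normalized counts of 8 genes in each control (blue) and Alk-YS (red) library, with the mean and SD of each group in black and vertical axes from 0. Rpt5, Rpt2, Rpt3R and Rpt6R did not overlap between the groups and were higher in Alk-YS, Rpn6 and CG30382 did not overlap and were lower, and Prosalpha1 and Prosbeta5 overlapped.

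Prosalpha1 differed from its partners in measured level and in spread. It had 724, 697 and 339.6 normalized counts in control and 821, 537 and 719.9 in Alk-YS, a log2 fold change of 0.30 ± 0.30 (SE, limma adjusted p = 0.78). Control replicate 3 had less than any other library, and without it the log2 fold change was -0.059. Prosalpha1 (2R, 7827303 to 7828678) lies beside CG30382 (2R, 7830413 to 7831771), which RefSeq names Prosalpha1R and which is known as a duplicate of it, on the same strand. Their sequences were not compared here. The table lists it as CG30382, so it is not among the 40 genes, and it was examined after the values were seen. If the copies are near-identical, reads could be divided between them or left uncounted, depending on the aligner and the counting settings. The level of each copy, and of both together, is then uncertain.

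CG30382 had 542, 591 and 404 normalized counts in control and 277, 270.1 and 292 in Alk-YS. It fell in Alk-YS, with a log2 fold change of -0.85 ± 0.16 (SE, limma adjusted p = 0.032), and was called under 12 of 17 alternatives, with adjusted p from 0.00015 to 0.13 over all of them. All 5 of the alternatives that lost the call left out 1 library. The share of CG30382 in the sum of both copies was 47.7% ± 5.94 in control and 29.2% ± 4.14 in Alk-YS (SD, n = 3), with no overlap. The sum itself was 1267, 1288 and 743 normalized counts in control and 1097, 807 and 1012 in Alk-YS, and it overlapped between the groups. Summed FPKM was 55.0 ± 15.4 in control and 48.5 ± 7.34 in Alk-YS (SD, n = 3). As counted, both copies together lay far below the other alpha genes, but the sum does not restore reads left uncounted. The DNA repair gene phr, whose annotation overlaps Prosalpha1 by 17 bases on the opposite strand, rose, with a log2 fold change of 1.32 (limma adjusted p = 0.014). CG18853, which starts between both copies, had a log2 fold change of 1.63 (adjusted p = 0.094). Both were looked at because of their position, after values were seen. Differences of sequence between the strains at this locus were not tested.

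The testis-type paralogues were nearly silent, with Rpt3R and Rpt6R as the exceptions. Each was set against its somatic counterpart in FPKM within the same library. Rpt3R (3R, 9754735 to 9756510), a paralogue of the ATPase gene Rpt3, had 2.26% ± 0.49 (SD, n = 6) of the FPKM of Rpt3, and Rpt6R (3R, 30582198 to 30583697), a paralogue of Rpt6, had 0.90% ± 0.35 of that of Rpt6. The other 6 had means of at most 0.14% of their counterparts.

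Rpt3R had 119, 107 and 88.6 normalized counts in control and 145, 138 and 193 in Alk-YS. Alk-YS replicate 3 was highest and control replicate 3 lowest, and the groups did not overlap. The log2 fold change was 0.59 ± 0.20 (SE, limma adjusted p = 0.23). Relative to Rpt3 its level was 1.90% ± 0.19 in control and 2.63% ± 0.40 in Alk-YS (SD, n = 3). Rpt6R had 27.5, 27 and 25.6 normalized counts in control and 38.7, 49.1 and 67.9 in Alk-YS, which were even among the control libraries and spread among the Alk-YS libraries. Its log2 fold change was 0.90 ± 0.30 (SE, limma adjusted p = 0.21), and its level relative to Rpt6 was 0.65% ± 0.096 in control and 1.15% ± 0.32 in Alk-YS (SD, n = 3). Neither difference passed the test. These were the largest estimates of the 34 genes tested.

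The remaining 6 testis-type genes were not tested. Rpt4R, a paralogue of Rpt4, had 2, 7 and 9 reads in control and 11, 2 and 6 in Alk-YS, with sums of 18 and 19. Prosbeta2R2, a paralogue of Prosbeta2, had 2, 8 and 2 reads in control and 0, 0 and 1 in Alk-YS. Prosbeta4R1, a paralogue of Prosbeta4, had 0 reads in every control library and 0, 4 and 3 in Alk-YS. A count of 0 allows up to 3 reads in a library, so that these values are at the limit of detection. Prosalpha4T1 had 2 reads, Prosalpha4T2 4 and Rpn12R 4 in all 6 libraries together. Prosalpha4T1 lies within CG42322 on the opposite strand and Rpn12R within Sytbeta on the same strand, so their few reads could belong to those genes. A further 7 family genes appeared only in the FPKM table, where 6 of them (Prosalpha3T, Prosalpha6T, Prosbeta2R1, Prosbeta4R2, Prosbeta5R1 and Rpn13R) were listed at 0 in every library. Prosbeta5R2 was listed at 0.031 FPKM in control replicate 2 and at 0 in the others.

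Testis germ line markers were examined beside these genes, since the gonad lies outside the CNS. Of 26 markers, 17 were in the table, and 9 of the 17 were under 10 normalized counts in every library. Their sum was 1118.2 to 1459 in control and 1128 to 1227 in Alk-YS libraries. The largest part of it came from 1 gene, bol, with 454 to 837 normalized counts per library, so the sum says little about the other markers. Of the 8 markers tested, 5 had log2 fold changes above 0 and 3 below 0, with a median of 0.27, and none was called by limma, while 1 had an unadjusted p under 0.05. That 1, the germ cell helicase gene vas, is named after its values were seen and had 29.7, 23 and 63 normalized counts in control and 73.8, 122 and 121 in Alk-YS (log2 fold change 1.52, limma adjusted p = 0.11). All Alk-YS values of vas were above all control values, the only such separation among the 8 markers tested. Of all genes tested, 9.41% had every Alk-YS library above every control library. The roX RNAs, which male cells make, summed to 10515 to 28358 in control and 14231 to 27656 in Alk-YS libraries. The part of germ cells or of the sex of the larvae in the Rpt3R and Rpt6R values was not tested.

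Genes that serve the proteasome without being subunits were described from a list of 22, of which 20 were in the table and tested. None was called by limma, while 2 had an unadjusted p under 0.05, edgeR called 0 and DESeq2 called 2. These 2 of 20 compare with 13.8% of all genes at that unadjusted p and 6.33% called by DESeq2. The estimates were above 0 for 11 and below 0 for 9, with a median of 0.043. The log2 fold change of cnc, the Nrf-type transcription factor whose homologues in mammals induce proteasome genes, was 0.061, with 3063, 2891 and 2839.7 normalized counts in control and 2927, 3126 and 3119.7 in Alk-YS. The assembly chaperone gene Pomp had 3280.3, 3705 and 2805 normalized counts in control and 3449, 2890.1 and 3639.6 in Alk-YS, an estimate of 0.030. It was low in control replicate 3 and Alk-YS replicate 2, the same libraries in which the core genes were low.

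The proteasome activator gene REG had 4085, 4685 and 4498 normalized counts in control and 4276, 4339 and 3969.8 in Alk-YS and the regulator gene PI31 had 1434, 1564 and 1554 in control and 1486, 1506 and 1403 in Alk-YS. Their estimates were -0.075 and -0.050, and the groups overlapped for both. The 2 genes with an unadjusted p under 0.05, named here after their values were seen, were the polyubiquitin gene Ubi-p63E and maf-S, which encodes the small Maf partner of Cnc. Ubi-p63E had 7716, 7269.7 and 7137 normalized counts in control and 9894, 8759 and 9938 in Alk-YS, a log2 fold change of 0.37 ± 0.086 (SE, limma adjusted p = 0.073). For maf-S there were 2466, 2908 and 1800.3 normalized counts in control and 1575, 1194 and 1526 in Alk-YS, a log2 fold change of -0.72 ± 0.19 (SE, limma adjusted p = 0.097). For neither gene did the groups overlap, with Ubi-p63E higher and maf-S lower in Alk-YS. Of the 20 genes, 2 (Ubi-p63E and Npl4) had every Alk-YS library above every control library, and 1 (maf-S) had the reverse. Of all 9668 genes tested, 910 had the first pattern and 975 the reverse. Ubi-p63E and maf-S were both called by DESeq2, and by limma only in some of the alternatives with libraries left out or the length trend removed.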

How the data were processed

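The 40 genes and the other lists were chosen with earlier results of these data known. Per the labels, total RNA of 3 control and 3 Alk-YS libraries was sequenced paired-end on an Illumina platform. According to the submitters' processing notes, HISAT2 2.0.5, featureCounts 1.5.0-p3 and DESeq2 1.20.0 were used with the BDGP6 assembly, and the annotation release and strand setting are not given in the sources used here. The authors deposited 2 tables used here. The first holds 13416 genes with a signal per library, the read count divided by a size factor (0.909 to 1.08), called normalized count in the text, besides the authors' own fold changes and p-values, which were not used. The second holds FPKM, computed by the authors for 17558 genes. All values of the first table were whole multiples of the smallest value of their library (100% within 0.001), which gave back the reads, 18770029 to 22333967 per library. An automatic check did not accept this for control replicate 2, whose size factor is close to 1, so count models served only as alternatives.

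A low-value filter, a 6-library mean of 10 normalized counts or more, left 9668 genes. These were log2-transformed with a pseudocount of 1 and compared by limma 3.58.1 in R 4.3.3 (mean-variance trend, two-sided), with Benjamini-Hochberg adjustment over these genes and a threshold of 0.05. Fold changes are on that scale, which understates those of low genes. The test called 287 genes, 122 higher and 165 lower in Alk-YS. Lists are described by counts and medians, with no test. The script was tested on simulated data. Coordinates are those of the deposited table. Values in all libraries are given for the 3 largest and 3 smallest log2 fold changes of each particle, the highest and lowest FPKM of each ring, base and lid, the 5 testis-type genes with the highest FPKM, and cnc, Pomp, REG and PI31, while other genes were named after their values were seen. Alternatives were edgeR 4.0.16 and DESeq2 1.42.0 on recovered reads, TMM scaling, pseudocounts of 0.1 and 5, no filter and a minimum mean of 50, a stricter threshold of 0.01, the FPKM table, a replicate block and leaving out each library. Removing the length trend of each library (lowess) and leaving out control replicate 3 and Alk-YS replicate 2 together were chosen after seeing the data.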

Additional observations from a re-analysis of the deposited data

How the results depend on the processing

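The count of called genes, 287 with limma, was 612 with DESeq2, 84 at an adjusted p under 0.01, 380.0 without control replicate 3 and Alk-YS replicate 2 together, and between 105 and 336 when 1 library was left out. Of the proteasome genes, 0 were called in the main test and 1 (Rpt5) with DESeq2, with the length trend removed, and without control replicate 3 and Alk-YS replicate 2 together. Leaving out 1 library gave 0 to 1, the 1 without control replicate 3. Of the 20 associated genes, 0 were called, 2 with DESeq2, 1 with the length trend removed (maf-S), 2 without both of those libraries, and 0 to 1 with 1 library left out. The median of the regulatory genes, 0.13, was 0.20 without both libraries and 0.097 to 0.19 with 1 left out, and that of the core genes 0.035 to 0.17. Their difference, -0.019, was between -0.10 and 0.035 with 1 library left out. In all settings that kept every library, 30 or 31 of the 32 core and regulatory genes had estimates above 0, and with 1 library left out 26 to 31 did. Small estimates changed sign. With 1 library left out, the log2 fold change ranged from -0.059 to 0.49 for Prosalpha1, from -0.11 to 0.065 for Prosbeta6, from -0.096 to 0.13 for Prosbeta1, from -0.075 to 0.16 for Prosalpha2, from -0.075 to 0.13 for Pomp and from -0.053 to 0.19 for Alk. Prosbeta6 was 0.0049 with the length trend removed and 0.0092 without both libraries, where Alk was -0.048. The causes were not tested.

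Both groups carry replicate numbers 1 to 3, but the samples with the same number did not deviate together in every pair (r = -0.12, 0.35 and 0.41 over genes). The 3 deviations of a group are not independent, so this check cannot settle whether libraries of the same number were prepared together. With the replicate block, limma called 284 genes and 0 proteasome genes, and the adjusted p of Rpt5 was 0.087. The median of the core genes was 0.11 and that of the regulatory genes 0.13, as without the block. Control replicates 2 and 3 correlated best with the Alk-YS library of their own number. Control replicate 1 correlated best with Alk-YS replicate 2 (r = 0.32).

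With 3 libraries per group, a single proteasome gene had a standard error between 0.072 and 0.30 log2, so that differences of the size of the median (0.12) were not detectable gene by gene. Testis-type genes with under 10 reads cannot be compared at this depth.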
